A study of Mus musculus with 367 samples.

Results

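The expression of 10 basement membrane genes was followed in single cells of healing mouse skin. The genes were chosen by name from the 50600 genes of the deposited tables, and all 10 were measured. They were Col4a1 and Col4a2 (the α1 and α2 chains of collagen IV), Lama2, Lama4, Lamb1, Lamb2 and Lamc1 (laminin α2, α4, β1, β2 and γ1), Nid1 and Nid2 (nidogen 1 and 2) and Hspg2 (perlecan). The cells came from Sm22-Cre;tdTomato mice of mixed background, 3 to 8 weeks old when large square excisional wounds of 1.5 by 1.5 cm were made on the back, and were sorted as viable tdTomato-high cells at post-wounding day (PWD) 12, 15 or 21. The age is that of the sample labels, and the study's methods give a narrower range. All groups carried both alleles and a wound, so neither unwounded skin nor tdTomato-negative cells are compared. Sm22-Cre is driven by the promoter of Tagln, and tdTomato stays on in any cell, and its progeny, in which Cre was once active.

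The full-length cDNA of single cells, caught on a microfluidic C1 chip, was sequenced from 7 captures, 3 at PWD12 (159 cells), 2 at PWD15 (117 cells) and 2 at PWD21 (91 cells). A capture is here a numbered Sample of a day in the labels, which do not say if each was a single loading of a chip. After removal of shallow cells and of those with a high mitochondrial share, 292 cells were left, with a median of 1470263 estimated fragments (171253 to 7967668). The unit is FPKM, fragments scaled for transcript length and for the total of the cell, which puts genes on a common scale. How evenly long transcripts were covered was not tested, and comparisons between genes rest on it. Each time point pooled wound tissue of 2 to 3 mice, and the sources do not say if captures had different mice, so the SD and p values below measure the spread between captures, which may be technical.

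Cells were assigned to kinds by 3 genes that are not among the 10. Matrix cells had at least 1000 FPKM of Col1a1 (a chain of collagen I), under 100 FPKM of Rgs5 (a pericyte gene) and under 50 FPKM of Tyrobp (a myeloid signalling adaptor). Mural cells had at least 500 FPKM of Rgs5 and under 50 FPKM of Tyrobp, and myeloid cells at least 500 FPKM of Tyrobp. This gave 198 matrix, 57 mural, 26 myeloid and 11 other cells. The kinds rest on RNA of the same cells, so any gene that varies together with Col1a1, Rgs5 or Tyrobp can differ between them.

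The kinds bore their own markers. The summed level of 8 fibroblast markers was 17996 to 33469 FPKM over the matrix captures and that of 8 mural markers was 1765 to 2641 FPKM over the mural captures, against 1.21 to 62.4 FPKM in matrix cells. The mural cells also held 3996 to 12992 FPKM of the fibroblast markers, with Col1a2 in 57 of 57 cells. Since endothelial cells are a main source of collagen IV, their markers were examined as well. The 8 endothelial markers summed to 5.68 to 87.8 FPKM in mural and 1.06 to 8.49 FPKM in matrix captures, ranges that overlapped. Of the 8, 3 averaged at least 1 FPKM over mural captures, namely Egfl7 (11.6 FPKM, in 2 of 57 cells), Emcn (10.4 FPKM, in 5 of 57) and Vwf (4.69 FPKM, in 40 of 57). Pecam1, Tie1 and Kdr averaged 0.58, 0.07 and 0.02 FPKM, and Cdh5 and Cldn5 were at 0 in 57 of 57 mural cells, where a limit of 3 cells allows a share of up to 5.26%. The part of endothelial RNA in the member values was not tested.

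Basement membranes are thin sheets of matrix beneath epithelia and endothelia and around muscle, fat, nerve and pericytes. Laminins, trimers of an α, a β and a γ chain, polymerise at the cell surface through integrins and dystroglycan, while collagen IV forms a covalent network that nidogen and the proteoglycan perlecan connect to the laminin layer. The ubiquitous form of collagen IV has 2 α1 chains and 1 α2 chain. Capillary basement membrane is laid down jointly by endothelial cells and pericytes, and fibroblasts supply nidogens and laminin chains to the dermal side of the epidermal membrane.

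Col4a1 and Col4a2 lie head to head on chromosome 8, at 11198423 to 11312826 on the minus strand and 11312805 to 11449287 on the plus strand of mm10 (GRCm38), so that the annotated genes overlap by 22 bases and their start sites lie 21 bases apart. Their promoter windows, 250 bases before to 50 after the start, are shown because these were the members that varied together most closely. They are the RefSeq sequences of GRCm38.p6, 5′ to 3′ on the strand of each gene, at chr8:11312777-11313076 for Col4a1 and chr8:11312555-11312854 for Col4a2. Capitals mark the GC box, spelled GGGCGG, and the CCAAT box, whose letters are its name, on either strand.
Col4a1: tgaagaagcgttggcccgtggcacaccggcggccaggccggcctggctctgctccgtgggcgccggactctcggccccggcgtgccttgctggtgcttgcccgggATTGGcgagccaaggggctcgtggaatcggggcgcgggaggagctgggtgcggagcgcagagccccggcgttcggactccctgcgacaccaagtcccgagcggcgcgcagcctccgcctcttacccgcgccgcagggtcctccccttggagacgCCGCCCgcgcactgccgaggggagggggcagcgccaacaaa
Col4a2: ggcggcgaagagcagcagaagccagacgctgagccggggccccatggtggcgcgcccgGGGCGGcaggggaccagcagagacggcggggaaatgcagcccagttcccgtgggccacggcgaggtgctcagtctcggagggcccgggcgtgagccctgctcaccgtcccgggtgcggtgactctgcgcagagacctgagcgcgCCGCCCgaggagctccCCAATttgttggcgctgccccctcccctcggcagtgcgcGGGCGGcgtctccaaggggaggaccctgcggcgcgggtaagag

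The windows share 78 bases, which hold 1 GC box, and 74% and 73.7% of their bases were G or C, against a median of 52.7% over the 32851 promoters of the table. Each window has 1 CCAAT box, Col4a1 has 1 GC box and Col4a2 has 3, and neither has a TATA box. RefSeq promoters were at hand for 7 of the 10 members, and no sequence of Lama4, Lamc1 or Nid2 was used. Of these 7, 6 have a GC box, which 35.7% of all promoters of this length have, and 4 have a CCAAT box (37.4% of all). The TATA box, spelled TATAAA, is in none of the 7 and in 13.6% of all. The searches covered both strands, no match overlapped another in the windows shown, and a match only describes the letters.

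The other members lie on separate chromosomes, apart from the laminin α chain genes. In mm10, Lama2 spans 26980036 to 27619758 on the minus strand and Lama4 38965515 to 39110188 on the plus strand of chromosome 10. Lamb1 is on chromosome 12, Lamb2 on 9, Lamc1 on 1, Nid1 on 13, Nid2 on 14 and Hspg2 on 4. All are annotated as protein coding, with spans from 10795 bases for Lamb2 to 639723 bases for Lama2.

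Mural cells stood apart by collagen IV. In mural cells of the 5 captures with at least 3 such cells, mean Col4a1 was 508, 441 and 752 FPKM at PWD12, 627 at PWD15 and 209 at PWD21, or 507 ± 205 FPKM (SD, n = 5). In matrix cells of the same captures it was 44.6, 72.8 and 70.2 FPKM at PWD12, 7.85 at PWD15 and 36.3 at PWD21. The lowest mural capture was thus above the highest matrix capture. Every mural cell held Col4a1 (57 of 57, exact 95% interval 93.7 to 100%), and 67.7% of matrix cells did (60.7 to 74.1%), or 42.9% when at least 1 FPKM was required. Within a capture the difference was 2.49 to 6.15 on the log2(mean FPKM + 1) scale and 3.62 ± 0.52 (SE) in the limma fit, with an adjusted p of 0.00774.

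Col4a2, whose product joins the α1 chain in the same trimer, followed it. Mural captures had 462, 263 and 360 FPKM at PWD12, 391 at PWD15 and 83.5 at PWD21, and the matrix cells of those captures had 28.9, 53.5, 23.6, 9.83 and 19.03 FPKM. Again the groups did not overlap, and the share of all tested genes without overlap was not counted. The log2 difference was 3.47 ± 0.51 (limma, adjusted p = 0.00862, higher in 5 of 5 captures), and Col4a2 was detected in 57 of 57 mural cells and in 48.5% of matrix cells.

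Among all 13823 genes tested between mural and matrix cells, 131 were called higher in mural cells, or 0.948%, at an adjusted p under 0.05, and 105 lower. Of the 10 members 2 were called, both higher, and the median log2 difference of the 10 was 0.24, against -0.22 over all genes. With no filter on low values the adjusted p of Col4a1 was 0.213 and that of Col4a2 0.176, and with no variance trend they were 0.0595 and 0.0547, so both calls rest on these choices. Both were kept whichever single capture was left out.

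**Figure D1:**
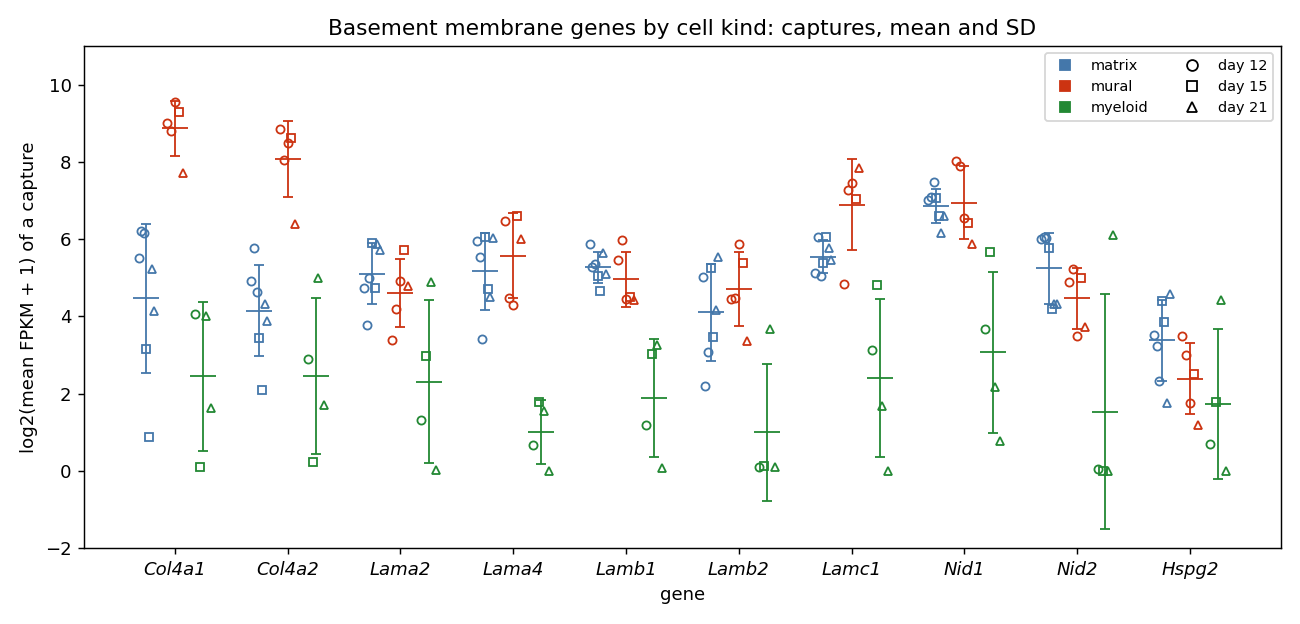
Level of the 10 genes by kind of cell. Points are captures with at least 3 cells of the kind (circles PWD12, squares PWD15, triangles PWD21), on the log2(mean FPKM + 1) scale, with the mean (long dash) and SD over 7 matrix, 5 mural and 4 myeloid captures. Mural points of Col4a1 and Col4a2 lie above all matrix points, and the kinds overlap for the other genes between matrix and mural cells.

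The levels of the laminin chains overlapped between matrix and mural captures. Lamc1, the γ1 chain found in most laminins, was at 27.8, 154 and 175 FPKM in mural cells at PWD12, 131 at PWD15 and 226 at PWD21, and at 33.6, 65.1, 31.8, 40.6 and 53.3 FPKM in matrix cells of these captures. It was higher in mural cells in 4 of 5 captures and the other way round in capture 1 of PWD12, with a log2 difference of 1.42 ± 0.47 that was not called (limma, adjusted p = 0.20). The mural mean of PWD21 came largely from 1 of 8 cells, with 1715 FPKM, since the median cell had 8.53 FPKM.

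No difference between the kinds in the α chains passed the test. Lama4, the α4 chain of vascular and mesenchymal laminins, had 57.5 ± 36.5 FPKM (SD, n = 5) in mural and 41.6 ± 22.8 FPKM (SD, n = 7) in matrix captures, and a log2 difference of 0.49 ± 0.51 (limma, adjusted p = 0.70). Its sum rested on few cells, since the 6 highest of 57 mural cells held 81.7% of it and the 20 highest of 198 matrix cells 60.5%. It was still detected in 73.7% of mural and 72.7% of matrix cells. In the mural capture of PWD15 the highest cell had 1289 FPKM and the median cell 1.315 FPKM. Lama2, the α2 chain of muscle and Schwann cell membranes, had 26.9 ± 16.02 and 37.7 ± 18.3 FPKM, and a difference of -0.46 ± 0.51 (adjusted p = 0.72). For both, mural and matrix captures overlapped throughout. Lama4 made up 50.9 ± 20.1% of the summed Lama2 and Lama4 in matrix captures and 63.96 ± 19.1% in mural captures, with ranges of 23.7 to 77.99% and 38.7 to 90.3%.

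For the β chains the same held. Lamb1, the β1 chain, had 39.1 ± 11.2 FPKM in matrix and 33.6 ± 18.5 FPKM in mural captures (log2 difference -0.48 ± 0.49, limma, adjusted p = 0.69). Lamb2, the β2 chain of vascular and synaptic membranes, had 21.8 ± 16.3 and 29.98 ± 19.1 FPKM (0.77 ± 0.69, adjusted p = 0.65). In 2 captures of PWD12 Lamb2 was 21.2 and 57.7 FPKM in mural against 3.598 and 7.43 FPKM in matrix cells, while mural cells were lower in the other capture of PWD12 and at PWD21. In that other capture the matrix mean of 31.7 FPKM came largely from 1 of 31 cells, with 818 FPKM, since the median cell had 0. In the mural mean of 57.7 FPKM the highest of 14 cells had 400 FPKM. When cells were averaged after the log, Lamb2 was called higher in mural cells, at 1.47 (adjusted p = 0.049).

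Nid1 was above Nid2 in 7 of 7 matrix and 5 of 5 mural captures, and neither nidogen was called between the kinds. Nid1 was at 119 ± 35.3 FPKM in matrix cells (range 70.8 to 179, n = 7) and 146 ± 93.7 FPKM in mural cells (57.4 to 259, n = 5), with a log2 difference of -0.02 ± 0.40 (limma, adjusted p = 0.99). It was found in 196 of 198 matrix and 57 of 57 mural cells. Nid2 had 43.1 ± 23.5 FPKM in matrix and 23.7 ± 11.7 FPKM in mural captures. Its mural value was the lower in 5 of 5 captures, with log2 differences of -2.55 to -0.59. The captures of the kinds overlapped and the difference of -1.17 ± 0.51 was not called (adjusted p = 0.33).

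Hspg2, the large heparan sulfate proteoglycan that links the networks, had the lowest mean of the members in both kinds, 11.7 ± 7.77 FPKM in matrix and 5.12 ± 3.59 FPKM in mural captures. It was also lower in mural cells in 5 of 5 captures, with log2 differences of -1.90 to -0.03 and a fitted value of -0.66 ± 0.62 (limma, adjusted p = 0.67). By capture it was the lowest member in 3 of 7 matrix and 4 of 5 mural captures. Detection parted from the mean here, and against Lamb1 and Lamc1 also from the level of the median cell. The median matrix cell had 4.915 FPKM of Hspg2, 0.4 of Col4a1, 2.645 of Lama2 and 4.745 of Lama4. Medians were higher for Lamb1 (14.32 FPKM) and Lamc1 (11.125 FPKM), which were found in 86.4% and 79.8% of matrix cells. Hspg2 was found in 94.9% of matrix cells (exact 95% interval 90.9 to 97.6%), beside 67.7% for Col4a1, 71.7% for Lama2 and 72.7% for Lama4, which had higher means, and in 64.9% of mural cells (51.1 to 77.1%). These intervals cover counting error only, and cells of a capture are not independent.

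**Figure D2:**
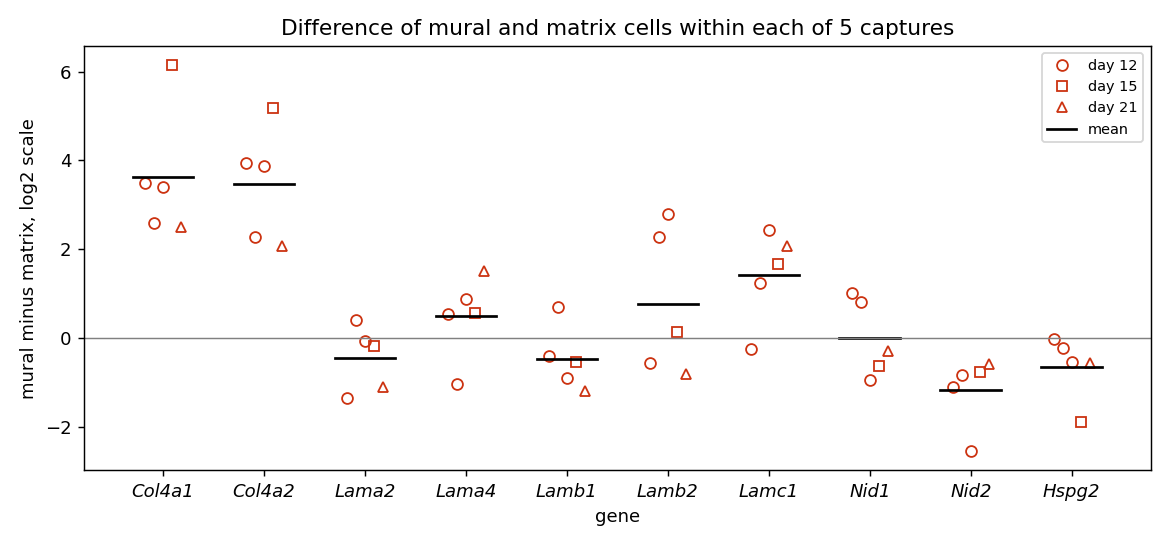
Mural minus matrix difference of log2(mean FPKM + 1) within each of 5 captures (points, by day) and their mean (line) for each gene. All points of Col4a1 and Col4a2 are above 2, those of Nid2 and Hspg2 are below 0, and those of the other 6 genes lie on both sides of 0.

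The order of the members therefore differed by kind. In matrix cells Nid1 was the highest in 7 of 7 captures. Lamc1 (47.5 ± 13.99 FPKM), Nid2, Lama4, Lamb1, Lama2 and Col4a1 (35.6 ± 28.9 FPKM) followed within an SD of each other, then Lamb2, Col4a2 (21.7 ± 16.4 FPKM) and Hspg2. In mural cells Col4a1 was highest in 4 of 5 captures and above Col4a2 in 5 of 5, and Nid1 and Lamc1 came next with like means of 146 and 143 FPKM. Collagen IV made up 61.2 ± 12.8% of the summed FPKM of the 10 genes in mural captures (41.2 to 73.3%) and 12.8 ± 8.82% in matrix captures (1.45 to 25.3%). The sum itself was 709 to 1517 FPKM in mural and 281 to 499 FPKM in matrix captures.

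In the 4 captures with at least 3 myeloid cells, all 10 members had lower fitted values in these than in matrix cells, and over all 13059 genes tested 640 were called lower, or 4.9%, and 221 higher. Of the members only Lama4 was called, at -4.18 ± 1.02 (limma, adjusted p = 0.038). Its myeloid captures had 0.605 FPKM at PWD12, 2.43 at PWD15 and 1.95 and 0 at PWD21, and the matrix cells of these captures had 45.3, 25.0, 21.6 and 63.9 FPKM, with no overlap. These means came from 11, 4, 5 and 3 myeloid cells. Lamb1, Lamc1 and Nid1, which were not called, had no overlap either, and the share of all genes without overlap was not counted. The call of Lama4 was lost under 8 of 14 alternatives, among them whichever capture was left out (adjusted p = 0.057 to 0.12). When cells were averaged after the log, Lama2, Lamb1, Lamc1, Nid1 and Hspg2 were called lower as well, with adjusted p values of 0.0037 to 0.042.

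The other 9 members had log2 differences from -3.54 (Nid1) to -1.56 (Col4a2), with adjusted p values of 0.073 to 0.39. The median over the 10 was -3.01, and over all genes -0.998, so that most genes were lower in these cells by this measure. Myeloid levels came from few cells. The 3 highest of 26 cells held between 78.8% (Lama4) and 99.9% (Hspg2) of the summed FPKM of a member, and at 1 FPKM or more the members were found in 7.69% (Nid2) to 26.9% (Nid1) of myeloid cells. Myeloid captures also held 69.3 to 11019 FPKM of the fibroblast markers, and the part of fibroblast RNA in their member values was not tested.

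**Figure D3:**
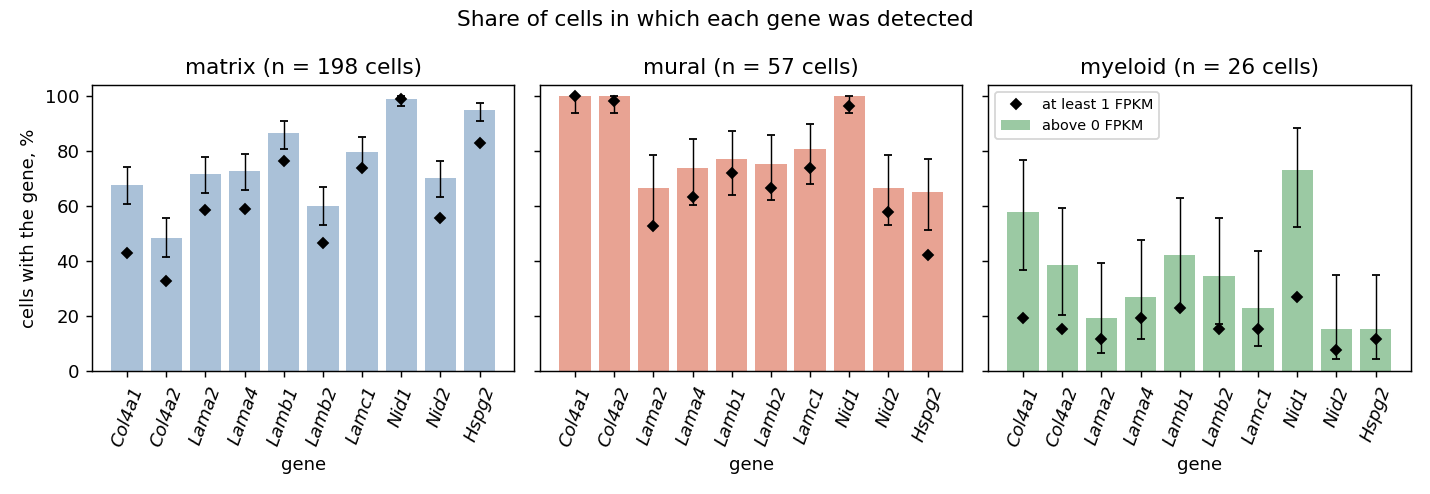
Share of cells in which each gene was above 0 FPKM (bars, with exact 95% binomial intervals) or at least 1 FPKM (diamonds) in matrix, mural and myeloid cells. Both collagen IV chains reach 100% of mural cells and Nid1 reaches 99.0% of matrix and 100% of mural cells, and in myeloid cells the share at 1 FPKM or more is at most 26.9%.

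Among matrix cells collagen IV was concentrated in a few. The 20 highest of 198 cells held 84.02% of the summed Col4a1 and 86.2% of the summed Col4a2, the largest shares of the 10 members. Other members were concentrated as well, with 77.8% for Lamb2, 64.6% for Lama2 and 60.5% for Lama4. The lowest shares were 34.04% for Nid1 and 47.8% for Hspg2. Those of Lamb1, Lamc1 and Nid2 lay between Hspg2 and Lama4. At least 100 FPKM of Col4a1 was reached by 11 matrix cells, 7 of 74 at PWD12, 2 of 72 at PWD15 and 2 of 52 at PWD21, and the highest had 936 FPKM. In mural cells the 6 highest of 57 held 33.2% of Col4a1.

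The 11 matrix cells with high Col4a1 had a median of 192 FPKM of Col4a2, while the other 187 had a median of 0. Mural markers moved with them. The 8 markers summed to a median of 68.6 FPKM in the 11 cells and 0.11 FPKM in the others. At least 1 of them reached 1 FPKM in 6 of the 11 and 52 of the 187, and 3 or more did in 1 of the 11 and 5 of the 187. The endothelial marker Pecam1 reached 1 FPKM in 2 of the 11 and 10 of the 187. Rgs5 was above 0 in 11 of 11 and in 121 of 187 cells, below 100 FPKM by the rule, and the median depth was 2237573 and 1412543 fragments. The part of these in the Col4a1 values was not tested. Their median Col1a1 was 4831 FPKM.

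The chains of collagen IV also varied together within a kind. Over cells, Spearman's rho of Col4a1 and Col4a2 was 0.63 in matrix (n = 198) and 0.66 in mural cells (n = 57). The other 44 pairs of members had a rho of -0.16 to 0.30 in matrix and -0.14 to 0.45 in mural cells, with Lamb1 and Nid1 as the highest in mural cells. By capture the rho of the collagen IV chains was 0.50 to 0.76 in matrix cells and 0.50 to 0.67 in mural cells, except in PWD21 with 0.02 over 8 cells. These are descriptions, since cells share captures and depth. Both chains were found in 57 of 57 mural, 88 of 198 matrix and 10 of 26 myeloid cells. Chains for at least 1 laminin trimer (Lama2 or Lama4, Lamb1 or Lamb2, and Lamc1) were found together in 136 matrix (68.7%), 38 mural (66.7%) and 3 myeloid cells (11.5%).

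**Figure D4:**
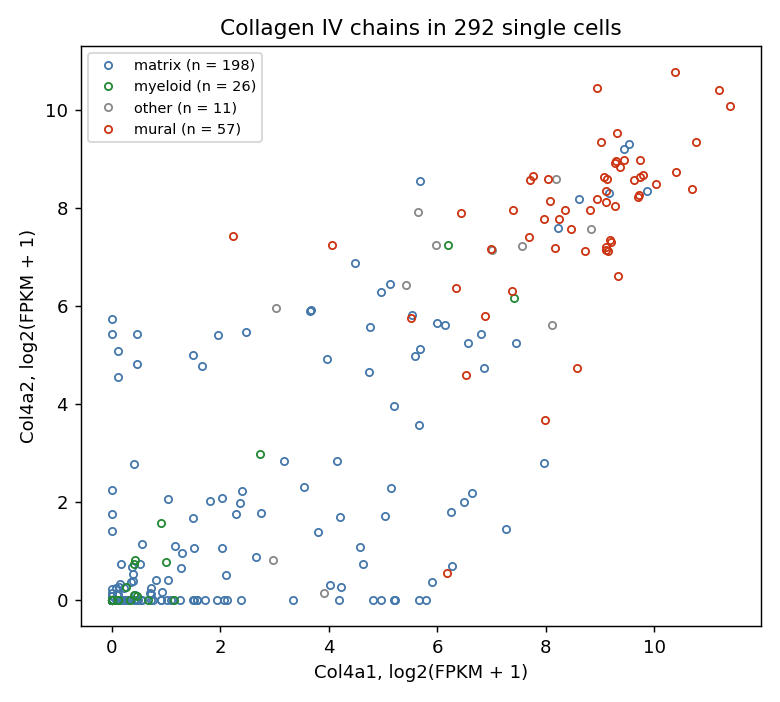
Col4a1 (horizontal) and Col4a2 (vertical) in each of 292 cells, as log2(FPKM + 1), by kind. Most mural cells lie at the upper right together with a few matrix cells, and 56 matrix cells lie at 0 for both.

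The 11 cells of no kind, 5 of which had 100 to under 500 FPKM of Rgs5, all held both collagen IV chains. Their Col4a1 was 6.85 to 457 FPKM with a median of 61.9, and their Lamb2 was 0 to 6.38 FPKM. The only mural cell of capture 2 of PWD15, not used in the tests, had 2348 FPKM of Col4a1 and 0 of Lamb1, Lamb2, Nid2 and Hspg2.

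Between days, the matrix cells of all 7 captures were compared. Col4a1 was at 44.6, 72.8 and 70.2 FPKM at PWD12, 7.85 and 0.83 at PWD15 and 36.3 and 16.6 at PWD21. The capture means of PWD12 were thus above those of both later days with no overlap, and those of PWD15 were the lowest. How many of all genes separate by day in this way was not counted. The means rested on few cells, since the median matrix cell had 0.565 FPKM at PWD12, 0.23 at PWD15 and 2.35 at PWD21, and when cells were averaged after the log PWD21 was above PWD12 by 0.32 on the log2 scale (not called). The log2 difference of PWD15 from PWD12 was -3.95 ± 0.76 (unadjusted p = 3.41e-04) but not called over all genes (limma, adjusted p = 0.46). Of 13552 genes tested 0 were called between these days (0%), and 791 had an unadjusted p under 0.05. Col4a2 was at 28.9, 53.5 and 23.6 FPKM at PWD12 and 9.83 and 3.24 at PWD15 and 19.03 and 13.9 at PWD21, and its difference of PWD15 from PWD12 was -2.34 ± 0.69 (adjusted p = 0.68).

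The PWD15 captures were the shallowest, with medians of 975692 and 971129 fragments per matrix cell, against 1204231 to 2004494 at PWD12 and 2193704 and 2306178 at PWD21. Detection of Col4a1 was 71.6% at PWD12, 55.6% at PWD15 and 78.8% at PWD21, and only 4 of 22 cells had it in capture 2 of PWD15. The part of depth in this was not tested.

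Nid2 had lower means at the later days, and no difference passed the test. At PWD12 it was 63.3, 65.1 and 64.9 FPKM, at PWD15 53.5 and 17.2, and at PWD21 18.8 and 19.03. The 3 captures of PWD12 were above all later ones and the PWD21 captures were close to each other. The share of all genes with such a separation was not counted. Nid2 was detected in 66 of 74 cells at PWD12, 47 of 72 at PWD15 and 26 of 52 at PWD21. Matrix cells of PWD21 had the highest median depth, and the part of depth in this was not tested. PWD21 differed from PWD12 by -1.71 ± 0.58 (limma, adjusted p = 0.57). When cells were averaged after the log, the difference was -2.71 with an adjusted p of 0.0149. In this comparison 1 of 13552 genes was called (0.00738%), namely Gm2564, which was singled out after its value was seen, and 968 had an unadjusted p under 0.05.

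**Figure D5:**
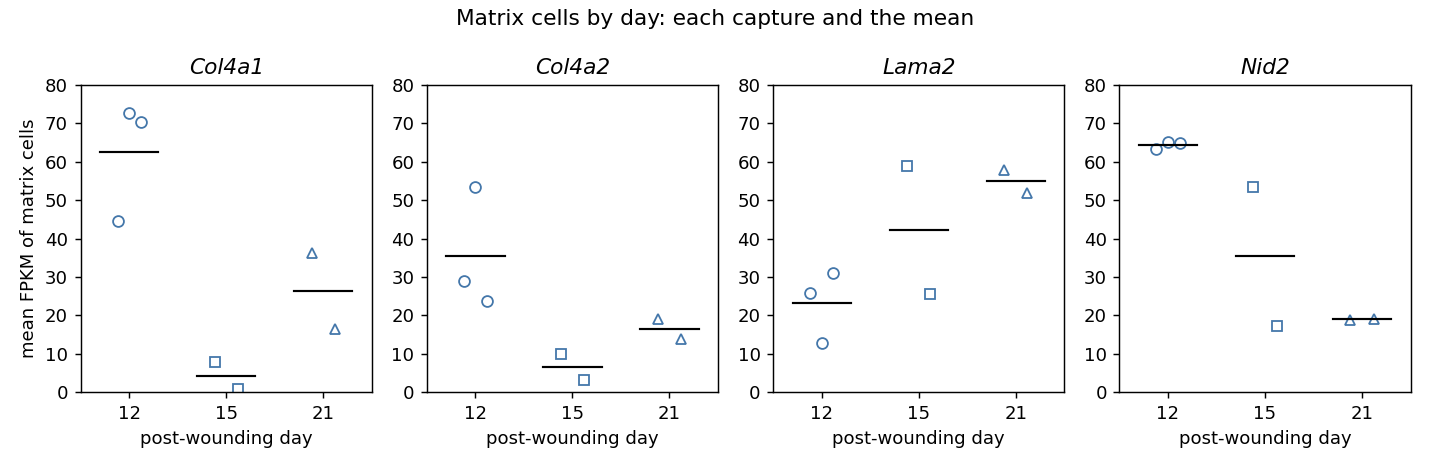
Mean FPKM of Col4a1, Col4a2, Lama2 and Nid2 in matrix cells of each capture (points) by post-wounding day, with the mean over captures (line). Col4a1 is lowest at PWD15, and Nid2 is near 64 FPKM in each PWD12 capture and near 19 FPKM in both PWD21 captures.

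Lama2 was 25.7, 12.8 and 30.97 FPKM at PWD12, 58.9 and 25.5 at PWD15 and 57.9 and 51.97 at PWD21. Both PWD21 captures were above all 3 of PWD12, a separation not counted over all genes, and the difference was 1.30 ± 0.60 (limma, adjusted p = 0.72). Nid1 was 128, 134 and 179 FPKM at PWD12, 133 and 96.2 at PWD15 and 70.8 and 95.5 at PWD21 (PWD21 minus PWD12 -0.81 ± 0.41, adjusted p = 0.72). Lamb2 was 31.7, 3.598 and 7.43 FPKM at PWD12 and 17.1 and 45.8 at PWD21, with overlap (1.43 ± 0.94, adjusted p = 0.78), and was detected in 41.9% of matrix cells at PWD12, 68.1% at PWD15 and 75% at PWD21. The overlap rested on the 31.7 FPKM of capture 1 of PWD12, which came largely from 1 of 31 cells, with 818 FPKM.

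The remaining members differed from PWD12 by -0.65 to 1.11 at PWD15 (Lamb1, Lamc1, Lama4 and Hspg2) and by -0.15 to 0.30 at PWD21, with adjusted p values of at least 0.90. None of the 10 was called at either day. Their median was -0.02 at PWD15 and -0.00 at PWD21, against -0.10 and -0.19 over all genes. Hspg2 varied within a day as much as between days, with 2.36 and 22.97 FPKM in the PWD21 captures.

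In mural cells, the 2 later captures were set against the 3 of PWD12. Of 12704 genes 0 were called (0%; 525 at an unadjusted p under 0.05), and the members had adjusted p values of at least 0.91. Col4a1 differed by -0.61 ± 0.57 and Col4a2 by -0.96 ± 0.70 (limma, adjusted p = 0.91 for both), and both changed sign without the PWD21 capture, to 0.18 and 0.15. Whether the mural minus matrix difference itself changed with time was tested in the same 5 captures. There 0 of 13823 genes were called (0%; 737 at an unadjusted p under 0.05). For Col4a1 the change was 1.16 ± 1.44 (adjusted p = 0.94), and with this SE a change of a few log2 units could not have been shown.

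Other genes of the pathway were taken from lists. Of 25 other basement membrane components 11 were tested between mural and matrix cells. Tinagl1, a matricellular protein of vascular membranes (212 ± 150 FPKM in mural and 0.437 ± 0.708 in matrix captures, log2 difference 6.97 ± 0.54, limma, adjusted p = 1.90e-04), and Col18a1, the collagen from which endostatin is cut (271 ± 67.2 and 19.8 ± 12.9 FPKM, 3.75 ± 0.44, adjusted p = 0.0023), were called higher and none was called lower. The call of Col18a1 was lost with no filter on low values (adjusted p = 0.061). The median of the 11 was 1.13. In matrix cells Smoc2, a calcium-binding matricellular protein, had the highest mean of the list, 73.8 ± 54.8 FPKM. The tissue-restricted chains Col4a3, Col4a4, Col4a5 and Col4a6 had means under 1 FPKM in all 3 kinds.

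Of 12 receptor genes 9 were tested and only Itga7, the integrin α7 chain that binds laminin, was called, higher in mural cells (139 ± 101 and 2.13 ± 4.13 FPKM, 5.34 ± 0.71, limma, adjusted p = 0.0048). With no filter on low values this call was lost (adjusted p = 0.13). Itgb1, its β1 partner, had the highest mean of the list, 195 ± 22.8 FPKM in mural and 144 ± 45.2 FPKM in matrix captures, and the median of the 9 was 0.98. All 13 genes of collagen folding and modification were tested, and 0 were called (3 at an unadjusted p under 0.05). Of the 13, 13 had lower fitted values in mural cells, with a median of -0.96. Over all 13823 genes tested the median was -0.22 and 41.1% were higher in mural cells, so most genes were lower there. P4hb, a subunit of prolyl 4-hydroxylase, led with 526.2 ± 116 FPKM in matrix and 271 ± 35.7 FPKM in mural captures. Of 8 proteases and inhibitors, Mmp2, a gelatinase that also cuts collagen IV (688 ± 138 FPKM in matrix and 122 ± 63.6 in mural captures, -2.73 ± 0.44, adjusted p = 0.013), and Mmp14, its membrane-bound activator (-1.85 ± 0.38, adjusted p = 0.045), were called lower in mural cells. The call of Mmp14 was lost under 10 of 16 alternatives and that of Mmp2 under 3, among them leaving out capture 1 of PWD12. Mmp2 was also among the 8 fibroblast markers summed above, so the 2 results are not separate.

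In myeloid against matrix cells, 2 of 9 tested other components (Smoc2 and Hmcn1), 0 of 6 receptors, 2 of 13 folding genes (Plod2 and Loxl2) and 2 of 8 proteases and inhibitors (Mmp2 and Mmp3) were called, all lower, at -3.31 to -6.25 (limma, adjusted p values of 0.014 to 0.046). The list medians were -2.34, -1.56, -3.31 and -3.05. All 6 calls were lost without capture 2 of PWD12, and each under 4 to 9 of the alternatives. Between days, 0 genes of these lists were called.

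Genes with the pattern most like a member were ranked by Pearson's r of log2(mean FPKM + 1) over the 16 points of kind and capture, among the 6778 genes that averaged 10 FPKM or more. For Col4a1 these were Col4a2 (0.97), Crip2 (0.93), Meox2 (0.93), Tmem100 (0.90) and Sparcl1 (0.89). For Lama2 they were C1qtnf2 (0.95), Tm9sf1, Ggcx, Tmem147 and Pcolce (0.91 to 0.92), for Lamb2 Apool (0.94), Rtn2, Ltbp4, Cdc23 and Dlc1 (0.88 to 0.92), and for Nid2 Ube2v2 (0.92), Tdg, Tsnax, Ubr4 and Cdc42bpa (0.89). Since points of a kind share their cells' makeup, these values only describe the likeness.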

How the data were processed

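Cells were grouped by capture and day from the labels. Values were deposited by the authors as FPKM, computed with RSEM and Bowtie 1.0.0 on mm10 with GENCODE mouse release 13. FPKM is a share of a cell's total, so a high gene lowers the others, and fragment counts were not used here. Symbols and positions were taken from GENCODE release 21 (50376 of 50600 identifiers matched). Fragments per cell were estimated from steps between FPKM values (tested on 75 simulated cells). Cells with at least 159000 fragments, at most 11000 genes and at most 15% mitochondrial FPKM were kept. A capture counted for a kind with at least 3 cells.

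Log2(mean FPKM + 1), pseudocount 1, of each kind and capture was tested with limma 3.58.1 (R 4.3.3, variance trend, two-sided) over all genes that averaged 1 FPKM or more. Kinds were compared with the capture as a block, and days without one. P values were adjusted over all genes tested by Benjamini-Hochberg, threshold 0.05. The fits were tested on simulated data. Intervals are Clopper-Pearson. The members, kinds and lists were chosen with earlier results of these data known. Named genes were all members, the 3 genes of the kinds, list genes past the threshold or with the highest mean, and the 5 genes most like 4 members. Alternatives changed the pseudocount, filters, scaling, averaging, trend, block, thresholds and captures. Python 3.11.15 with scipy 1.17.1 was used.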

Additional observations from a re-analysis of the deposited data

Results flagged for a closer look

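Over captures, the gap of the highest or lowest value to the nearest other was compared with Dixon's limit for the levels of the 10 genes in each kind and for their differences between kinds. Of 50 such sets 6 stood out, and chance alone flags about 1 in 20. In mural cells Lamc1 was low in capture 1 of PWD12, at 4.85 on the log2 scale against 7.04 to 7.83 in the other 4. The mural minus matrix difference was far out in capture 1 of PWD15 for Col4a1, at 6.15 against 2.49 to 3.48, and for Hspg2, at -1.90 against -0.56 to -0.03. For Nid2 it was far out in capture 3 of PWD12, at -2.55 against -1.11 to -0.59. In myeloid cells Lamb2 stood out in capture 1 of PWD21, at 3.67 against 0.10 to 0.13 (5 cells), and Nid2 in capture 2 of PWD21, at 6.10 against 0 to 0.04 (3 cells). No member's mural minus matrix difference passed the test of a change between PWD12 and the later days.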

How the results depend on the processing

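Mural against matrix cells gave 236 called genes, 19 with no filter on low values, 90 with no variance trend, 692 when cells were averaged after the log and 102 to 228 with a capture left out. Myeloid against matrix cells gave 861, falling to 183 with a pseudocount of 10, 31 with no low filter, 485 with all cells, 154 with at least 5 cells and 108 to 340 with a capture left out, and rising to 1365 after rescaling each cell to TPM, which moved the median of all genes from -0.998 to -1.20 (mural: -0.22 to -0.33). Matrix cells averaged after the log gave 79 genes at PWD15 and 87 at PWD21 (0 and 1 otherwise). The 1 gene at PWD21 was lost (0 called) with a pseudocount of 0.1, no low filter, rescaling, the replicate block or with a capture left out. Members in over 50% of myeloid cells fell from 2 to 0 at 1 FPKM. The cause was not tested.

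Of 729 repeats of the 47 single-gene differences, 639 kept direction and call, 67 lost the call, 8 gained it (7 of them when cells were averaged after the log) and 15 changed sign. Those that changed sign were uncalled there: averaging after the log gave Lama2 0.015 (mural against matrix), Col4a1 0.32 (PWD21), and -0.82 (Col4a1) and -0.67 (Col4a2) for the change of the mural minus matrix difference with time. For that change Col4a2 was also -0.041 with a pseudocount of 10, -0.32 with the replicate block and -1.29 to 1.81 without single captures, and Col4a1 -0.67 (without capture 1 of PWD15) to 2.99. Nid1 in mural against matrix cells was -0.27 to 0.22 without single captures, Hspg2 in myeloid cells 0.073 with at least 5 cells, and mural Col4a1 and Col4a2 at later days were -1.40 to 0.18 and -2.06 to 0.15 without single captures.

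Capture numbers did not pair the captures (correlations of deviations -0.007 to 0.025). With the replicate block on them, 0 genes were called in each comparison of days. Dropping the capture block between kinds (no replicate block) gave 251 and 1236 called genes. Mmp2 lost its mural call without capture 1 of PWD12 (adjusted p = 0.063), and Mmp14 without any of the captures other than PWD21 (adjusted p = 0.11 to 0.15). Nid2 gained the myeloid call without capture 2 of PWD21 (adjusted p = 0.046). Depth is known only as an estimate, and with 4 to 7 captures small differences could not be shown.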
